A study of Mus with 50 samples.

Results

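High and low collagen livers are the ends of a score over 50 mouse livers. For each liver the log2 signals of Col1a1, Col1a2 and Col3a1 were standardised over the 50 livers and averaged, and the 13 highest scores were set against the 13 lowest, so the comparison used 26 of 50 livers. The livers were thus selected on measured Col1a1, Col1a2 and Col3a1 signals, and no label puts a liver in either group. Everything below therefore describes genes that were higher or lower along these 3 transcripts. No treatment or genotype given by the labels separates the groups.

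All 50 livers came from female mice of a C57xFVB backcross that carried the MMTV-Neu transgene, a Neu proto-oncogene under the mouse mammary tumour virus promoter, which acts mainly in mammary epithelium. Breast cancer is given as a comorbidity of every mouse. The high collagen livers, the middle livers and the low collagen livers thus shared transgene, sex and disease, and there was no mouse without the transgene. Which C57 and FVB alleles each backcross mouse carried is not given by the labels. The study set out to relate a grade of ageing to breast cancer aggressiveness; age, grade of ageing and tumour data per mouse were not analysed here. One whole-transcript array was run per mouse, and values are log2 signals.

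Collagen types I and III form the fibrils of the liver's connective tissue. In a healthy liver they lie mainly around portal tracts and large veins, while basement membrane proteins such as type IV collagen and laminins surround vessels and bile ducts and occur sparsely along the sinusoids. Hepatic stellate cells store vitamin A in the space beside the sinusoid, and in injured liver they, together with portal fibroblasts, become myofibroblasts, the main producers of fibrillar collagen. Scar formation also involves signals such as TGF-beta and PDGF, lysyl oxidases that crosslink the fibrils, and metalloproteinases that cleave them.

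Col1a1, which encodes the alpha 1 chain of type I collagen, ran from 5.46 to 9.08 with a median of 5.97 in high collagen livers, and from 4.51 to 5.27 with a median of 4.90 in low collagen livers. Its partner chain gene Col1a2 ran from 5.08 to 7.62 with a median of 5.72 in high collagen livers, and from 4.47 to 4.93 with a median of 4.61 in low collagen livers. Col3a1, the type III chain gene, ran from 6.06 to 8.34 with a median of 6.68 in high collagen livers, and from 4.90 to 5.70 with a median of 5.48 in low collagen livers. These genes chose the groups, so their separation is a description and was not tested. The spread was much wider at the upper end: Col1a1 had an SD of 1.0 over the 13 high collagen livers and 0.21 over the 13 low collagen livers. The 24 middle livers lay between, with Col1a1 from 4.92 to 5.63 with a median of 5.28.

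Scores ran from 0.31 to 4.12 in high collagen livers and from -1.21 to -0.57 in low collagen livers. The thresholds cut a nearly continuous range. Liver 79, the lowest of the high collagen livers, scored 0.308, and liver 223, the next below it, scored 0.237. Liver 109, the highest of the low collagen livers, scored -0.566, and liver 40, just above it, scored -0.564. Only livers 235 and 64 lay clearly above the others, with scores of 4.12 and 2.69 against 1.47 for liver 10, the next in order.

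**Figure D1:**
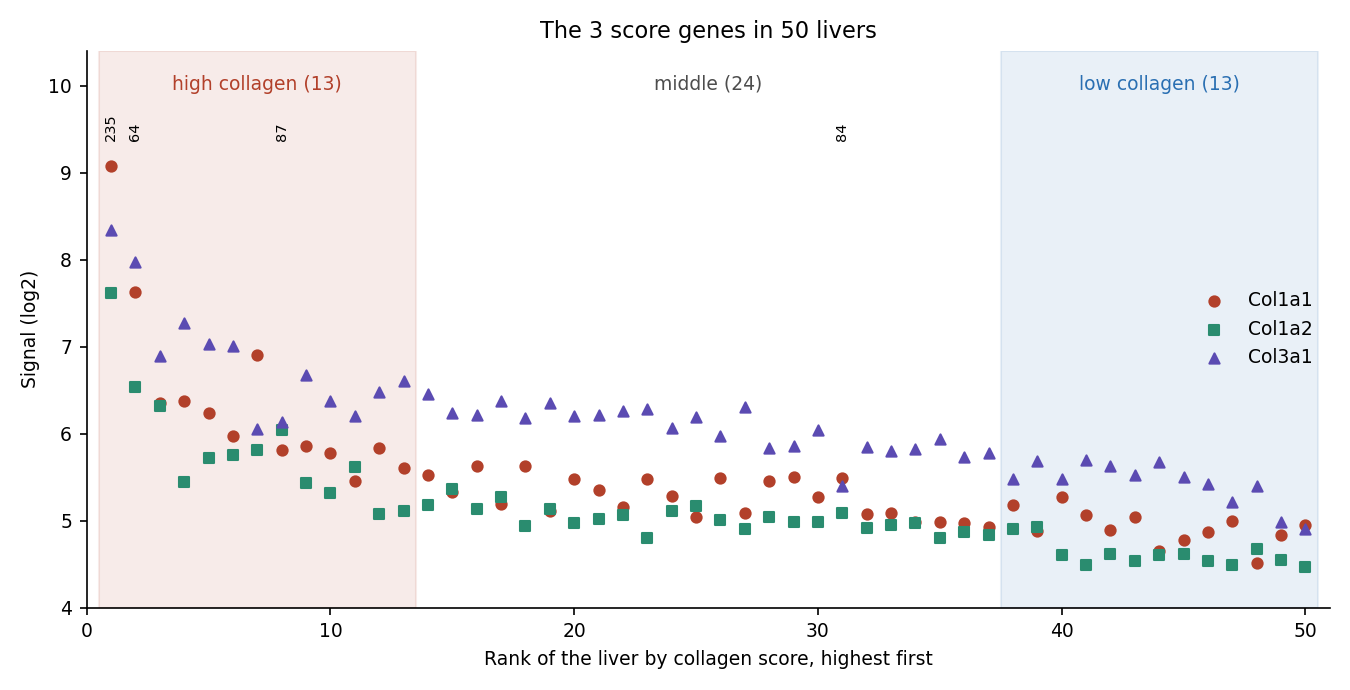
Log2 signals of Col1a1, Col1a2 and Col3a1 (vertical axis) in 50 livers ordered by their collagen score, highest first (horizontal axis). Shading marks the 13 high and the 13 low collagen livers; printed numbers name the 4 livers that stand apart from the rest in their correlation with the other arrays. Liver 235, at rank 1, has Col1a1 at 9.08, and the fall from rank 3 to rank 50 is gradual.

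Several livers differed from the rest beyond their collagen. Livers 64, 87 and 235 among the high collagen livers, and liver 84 of the middle, fell below the lower quartile of the median correlation with the other arrays by over 3 interquartile ranges; no low collagen liver did. Over the groups, that median correlation averaged 0.937 in high and 0.971 in low collagen livers (permutation test, two-sided, adjusted p = 0.00672 over 4 measures). Array median, array spread and animal number did not pass the test (adjusted p = 0.936 for each). The processing brings all arrays to 1 distribution, so array median and spread had little room to differ. Liver 161, a high collagen liver, lay far out on the mammary epithelium list, with the milk protein gene Csn2 at 12.04 and Erbb2, the mouse counterpart of Neu, at 9.65, against at most 2.73 and 3.60 in low collagen livers. Liver 149 of the high and liver 24 of the low collagen livers lay far out on pancreatic acinar genes; the chymotrypsinogen gene Ctrb1 reached 10.67 in liver 149 and 6.68 at most in low collagen livers. Alb, the albumin gene of hepatocytes, was at least 13.20 in every high and 13.36 in every low collagen liver, near the top of all values, which end at 13.54. Results are also given without livers 64, 87 and 235, which left 10 high and 13 low collagen livers.

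Of 22177 genes tested, 31 (0.14%) rose and 27 (0.122%) fell in high collagen livers at an adjusted p under 0.05 (limma, Benjamini-Hochberg over all genes). With each array centred on its median the counts were 29 higher and 42 lower. At an unadjusted p under 0.05, 6.82% of genes were higher and 10.5% lower, and the median difference over all genes was -0.02; the gene lists below are to be read against these shares. No gene had high and low collagen livers wholly apart (0% of 22177 in either direction). Without livers 64, 87 and 235, 19 genes (0.0857%) were called, of which 18 (0.0812%) rose and 1 (0.00451%) fell; at an unadjusted p, 5.06% were higher and 6.45% lower. Of the 31 genes that rose, 17 were still called then, and of the 27 that fell only Mmaa was, while all 58 kept their sign. The remaining livers are among those that chose these genes, so the kept signs are a description. Ptgfrn, a cell surface immunoglobulin-family protein gene singled out after its values were seen, was the 1 new call. Without livers 24, 149 and 161, which lay far out on mammary or pancreatic genes, 60 genes were called, and without both kinds of liver 16.

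Single livers also moved the count, between 12 calls without low collagen liver 114 and 232 without high collagen liver 79, the liver next to the threshold. The 12 genes called whichever of the 26 livers was left out were all higher: Col4a1, Col6a3, Lama2, Lamb1, Fbln5, Cd34, Bicc1, Ppic, Emp1, Anxa1, Ehd2 and Heg1. Of these only Ppic missed the threshold without livers 64, 87 and 235 together (adjusted p = 0.052). Every other call below was lost without at least 1 liver. Middle liver 84, which stands apart and scored -0.37, was in neither group. This liver lay above every high collagen liver for Col4a1 (7.25), Col6a3, Lama2, Lamb1 (7.24), Cd34, Bicc1 (7.61), Ppic and Heg1. For Fbln5, Emp1, Anxa1 and Ehd2 it did not. All 31 genes that rose were higher in each of 4 stretches of animal numbers, and 25 of the 27 that fell were lower in each. The stretches divide the same 26 livers that chose these genes, so the shared signs are a description and no independent test.

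**Figure D2:**
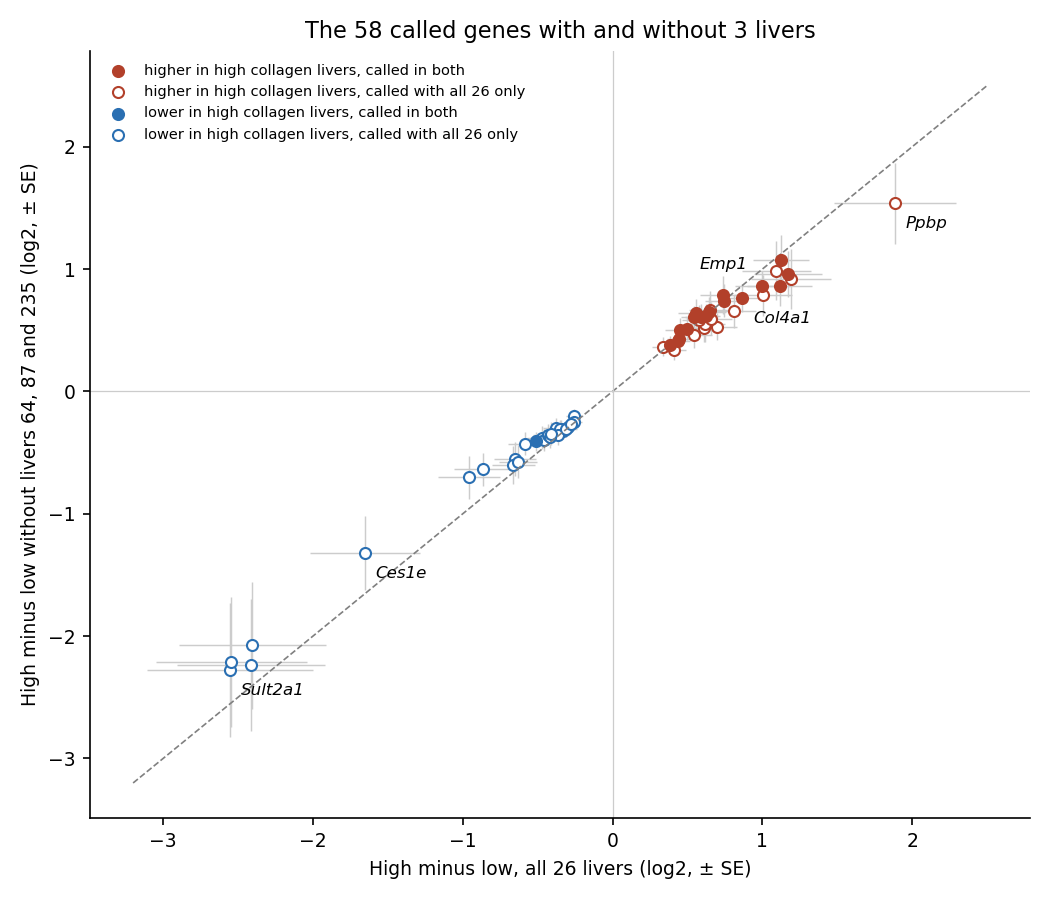
Difference between high and low collagen livers (log2, with SE) for the 58 called genes, with all 26 livers (horizontal axis) and without livers 64, 87 and 235 (vertical axis). Filled points are called in both comparisons and open points with all 26 livers only; the dashed line marks equal differences. All 58 genes keep their sign, 17 higher genes and 1 lower gene stay called, and Sult2a1 lies lowest on the horizontal axis at -2.55.

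Of 31 fibril and network collagen genes outside the score, 2 rose, Col6a1 and Col6a3, where 0.14% of all genes did. None fell, and the median difference over the 31 genes was -0.01, close to that of all genes. At an unadjusted p, 6 were higher and 1, Col2a1, was lower. Col6a1 and Col6a3 encode chains of type VI collagen, a beaded microfibril found close to cells. Col6a1 ran from 5.32 to 6.66 (median 5.85) in high collagen livers and from 4.93 to 5.59 (median 5.20) in low collagen livers, a difference of 0.70 ± 0.13 (SE; adjusted p = 0.0218; 0.53 and adjusted p = 0.057 without livers 64, 87 and 235). Its 2 highest values, in livers 87 and 64, came from livers that stand apart. Col6a3 ran from 4.52 to 5.43 (median 4.99) in high collagen livers and from 4.34 to 4.81 (median 4.59) in low collagen livers (0.44 ± 0.08, SE; adjusted p = 0.0104); 1 high collagen liver fell below the low collagen median and the rest lay above every low collagen liver.

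The third chain gene of type VI, Col6a2, differed by 0.36 without passing the test (adjusted p = 0.0935). Col14a1, a fibril-associated collagen of fibroblasts, differed by 0.43 (adjusted p = 0.11). Col12a1, its relative, differed by 0.75 (adjusted p = 0.1), with its highest value in liver 235. Col5a2, a minor component of type I fibrils, differed by 0.32 (adjusted p = 0.207), and its partner Col5a1 by 0.14 (adjusted p = 0.36). Collagens typical of cartilage or epithelium did not pass the test either: Col2a1 differed by -0.13, Col10a1 by 0.02, Col7a1 by -0.08 and Col17a1 by -0.09. Liver 161 held the highest values of Col9a3 (5.88) and Col11a1 (5.0).

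Of the matrix groups, basement membrane genes held the most calls. Of 25 tested, 6 rose and none fell, 11 were higher and none lower at an unadjusted p, and the median difference was 0.30, or 0.35 without livers 64, 87 and 235. Col4a1 and Col4a2 encode the paired chains of the type IV collagen found in almost every basement membrane. Col4a1 ran from 5.33 to 6.51 (median 5.80) in high collagen livers and from 4.56 to 5.38 (median 4.97) in low collagen livers, which is 1.82-fold higher (0.87 ± 0.12 log2, SE; adjusted p = 0.00146). This was the smallest adjusted p of all genes tested; the groups met only at their edges, and the value was 0.76 (adjusted p = 0.00428) without livers 64, 87 and 235. Col4a2 ran from 4.92 to 6.05 (median 5.43) in high and from 4.48 to 5.18 (median 4.80) in low collagen livers (0.61 ± 0.12, SE; adjusted p = 0.0236). The chains of specialised basement membranes did not pass the test, with differences of -0.01 for Col4a3, -0.09 for Col4a4, 0.06 for Col4a5 and 0.02 for Col4a6.

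Laminins are the trimers to which cells attach in a basement membrane. Lamb1, a beta chain, ran from 5.11 to 5.76 (median 5.42) in high collagen livers and from 4.37 to 5.15 (median 4.77) in low collagen livers (0.63 ± 0.09, SE; adjusted p = 0.00354). Lama2, an alpha chain best known from muscle, ran from 3.33 to 4.19 (median 3.83) in high collagen livers and from 3.19 to 3.64 (median 3.37) in low collagen livers (0.44 ± 0.08, SE; adjusted p = 0.0123). All 13 low collagen livers thus had Lama2 below the median gene level of 3.65. Lamb1 and Lama2 both stayed called without livers 64, 87 and 235, at 0.62 and 0.41. Nid1, which links laminin to type IV collagen, ran from 6.68 to 9.35 (median 8.22) in high and from 6.43 to 8.48 (median 6.98) in low collagen livers (1.09 ± 0.23, SE; adjusted p = 0.0378), a wider overlap. Sparc, a secreted collagen-binding glycoprotein, ran from 6.56 to 7.57 (median 6.98) in high collagen livers and from 5.65 to 6.90 (median 6.62) in low collagen livers (0.62 ± 0.14, SE; adjusted p = 0.047). Nid1 and Sparc were not called without livers 64, 87 and 235 (adjusted p = 0.11 and 0.127). Col18a1, whose product is made in quantity by hepatocytes, differed by -0.27 (adjusted p = 0.445), and by 0.00 without those livers.

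**Figure D3:**
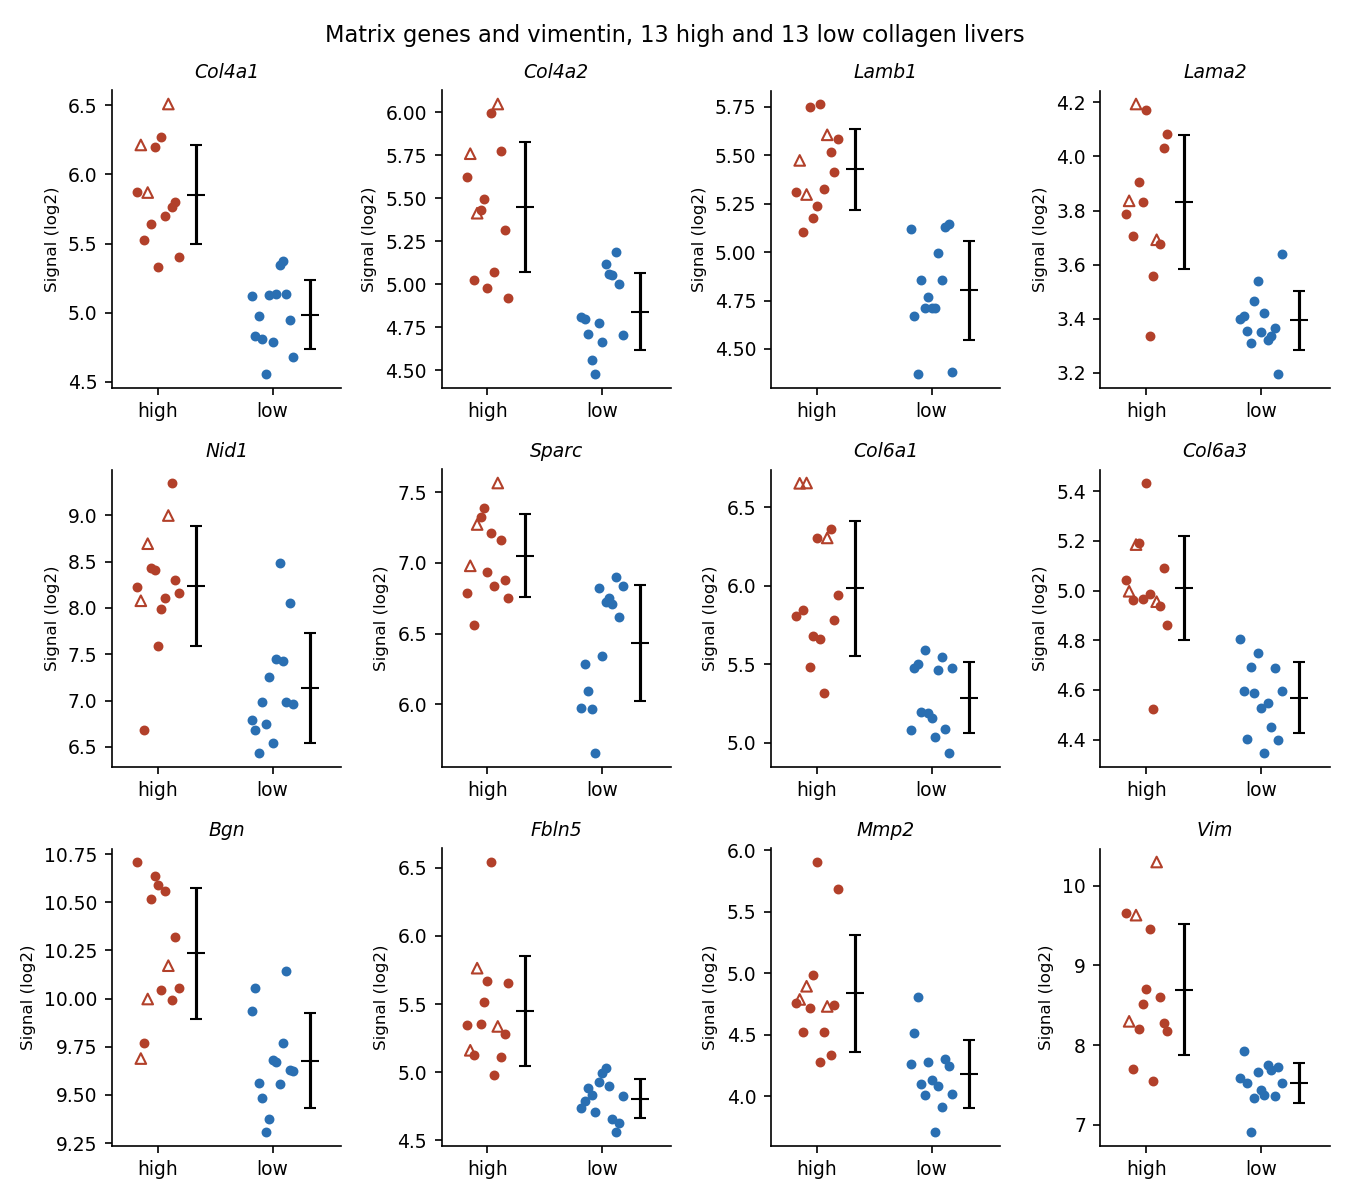
Log2 signals (vertical axes, each with its own range) of 11 matrix genes and vimentin in the 13 high collagen livers (left in each panel) and the 13 low collagen livers (right). Points are livers, open triangles are livers 64, 87 and 235, and bars show mean and SD. Col4a1 runs from 5.33 to 6.51 (median 5.80) in high and from 4.56 to 5.38 (median 4.97) in low collagen livers, and no panel separates the groups completely.

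The proteoglycan and elastic fibre groups each held a single called gene. Of 18 small proteoglycan genes, Bgn rose and none fell, 6 were higher and none lower at an unadjusted p, and the median difference was 0.21. Biglycan, the product of Bgn, binds collagen fibrils and growth factors. Bgn was abundant in both groups, running from 9.69 to 10.71 (median 10.17) in high and from 9.31 to 10.14 (median 9.63) in low collagen livers (0.56 ± 0.12, SE; adjusted p = 0.0378), and the difference was 0.64 (adjusted p = 0.0253) without livers 64, 87 and 235. Lum, which encodes the fibril-binding lumican, differed by 0.66 (adjusted p = 0.0542), and Dcn, encoding decorin, by 0.28 (adjusted p = 0.19). Of 30 elastic fibre and matricellular genes, Fbln5 rose, none fell, and 9 were higher and none lower at an unadjusted p (median 0.13). Fbln5, encoding fibulin 5, which elastic fibre assembly needs, ran from 4.98 to 6.54 (median 5.34) in high collagen livers and from 4.56 to 5.03 (median 4.83) in low collagen livers (0.64 ± 0.12, SE; adjusted p = 0.0156). Thbs1, encoding the TGF-beta activating thrombospondin 1, had a larger but more scattered difference of 1.29 (adjusted p = 0.0555), and Postn, encoding periostin, one of 1.08 (adjusted p = 0.0945).

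Among genes of the machinery that makes and remodels fibrils only Mmp2 was called, where 0.262% of all genes were. Of 21 genes for collagen synthesis and folding none was called, 4 were higher at an unadjusted p, and the median difference was 0.07. Serpinh1, the collagen chaperone HSP47, differed by 0.43 (adjusted p = 0.166). None of 14 genes for procollagen cleavage and crosslinking was called, with 6 higher and 2 lower at an unadjusted p (median 0.17). Lox, encoding lysyl oxidase, differed by 0.51 (adjusted p = 0.121), its relative Loxl1 by 0.35 (adjusted p = 0.101) and Pcolce, an enhancer of procollagen cleavage, by 0.29 (adjusted p = 0.0999). Of 26 genes for collagen breakdown and its inhibitors, Mmp2 rose, none fell, and 6 were higher and 1 lower at an unadjusted p (median 0.15). Mmp2, a gelatinase made by stellate cells and fibroblasts, ran from 4.27 to 5.90 (median 4.74) in high collagen livers and from 3.71 to 4.81 (median 4.13) in low collagen livers (0.65 ± 0.15, SE; adjusted p = 0.047); without livers 64, 87 and 235 the difference was 0.66 and not called (adjusted p = 0.11). Timp2, an inhibitor of metalloproteinases, differed by 0.51 (adjusted p = 0.18).

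No gene for signals that act on collagen-producing cells was called. With 0.262% of all genes called, the lack of calls in lists of this size does not set them apart. None of 25 TGF-beta and BMP ligands and activators, 24 TGF-beta receptors and SMADs, 19 TGF-beta and YAP target genes or 24 PDGF and FGF signalling genes passed the test; their median differences were 0.15, 0.04, 0.24 and -0.02. At an unadjusted p, 5, 4, 5 and 5 of them were higher and 1, 1, 0 and 5 lower, in the same order. Over all genes, 6.82% were higher and 10.5% lower. Tgfb1 ran from 5.92 to 8.94 (median 6.81) in high collagen livers and from 5.27 to 6.92 (median 6.29) in low collagen livers (0.74 ± 0.26, SE; adjusted p = 0.152), and its highest value was in liver 235. Ltbp1, which tethers latent TGF-beta to the matrix, differed by 0.45 (adjusted p = 0.0542), and by 0.52 (adjusted p = 0.0502) without livers 64, 87 and 235. The matricellular target Ccn2 differed by 0.55 (adjusted p = 0.105). Of the PDGF receptors, Pdgfrb differed by 0.40 (adjusted p = 0.087) and Pdgfra by 0.49 (adjusted p = 0.12). Among 21 collagen receptors and integrins none was called, while 12 were higher and none lower at an unadjusted p (median 0.30). Itgb1, the integrin beta chain shared by the collagen-binding integrins, differed by 0.43 (adjusted p = 0.101), and the collagen receptor kinase gene Ddr2 by 0.27 (adjusted p = 0.12).

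In bulk tissue, more cells of a type and more RNA per cell cannot be told apart. Of 21 genes of activated stellate cells, Vim rose, none fell, and 13 were higher and none lower at an unadjusted p (median 0.39, or 0.38 without livers 64, 87 and 235). The mean signal of this list ran from 4.65 to 5.49 in high collagen livers and from 4.34 to 4.65 in low collagen livers, so the groups met at their edges. Vimentin, an intermediate filament protein of mesenchymal cells, had Vim signals from 7.55 to 10.30 (median 8.52) in high collagen livers and from 6.91 to 7.92 (median 7.53) in low collagen livers (2.25-fold, 1.17 ± 0.23 log2, SE; adjusted p = 0.0236). The myofibroblast marker Acta2 ran from 5.58 to 9.14 (median 6.11) in high and from 5.37 to 6.34 (median 5.79) in low collagen livers (0.87 ± 0.29, SE; adjusted p = 0.141); its highest value was in liver 149. Tagln, another contractile protein gene, differed by 0.33 (adjusted p = 0.146). Of 19 genes of resting stellate cells none was called, with 4 higher and 1 lower at an unadjusted p (median 0.14). The stellate markers Lrat and Reln differed by 0.04 and 0.07 (adjusted p = 0.91 and 0.807), whereas the stellate globin gene Cygb differed by 0.47 (adjusted p = 0.0935).

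Among markers of other mesenchymal, vascular and ductal cells Cd34 and Bicc1 were called, where 0.262% of all genes were. Of 21 genes of vascular endothelium outside the sinusoids Cd34 rose, none fell, and 8 were higher and none lower at an unadjusted p (median 0.23). Cd34, a sialomucin of vascular endothelium and of portal fibroblasts, ran from 3.74 to 5.23 (median 4.68) in high collagen livers and from 3.29 to 4.26 (median 3.82) in low collagen livers (0.74 ± 0.13, SE; adjusted p = 0.0103), with a difference of 0.74 (adjusted p = 0.0253) without livers 64, 87 and 235. Cd34 was also the 1 call among 18 portal fibroblast genes (4 higher and 1 lower at an unadjusted p, median 0.11), whose markers Thy1, Eln and Fbln2 differed by 0.16, 0.10 and 0.15. Of 20 genes of sinusoidal endothelium none was called and 1 was higher and 1 lower at an unadjusted p (median 0.10): the scavenger receptor gene Stab2 differed by 0.27, and Lyve1, a hyaluronan receptor gene, by 1.52 (adjusted p = 0.11). None of 13 smooth muscle genes (4 higher and none lower at an unadjusted p, median 0.24) or 16 mesothelial genes (1 higher and none lower, median 0.04) was called. Of 16 cholangiocyte genes only Bicc1 rose, and 1 was higher and 1 lower at an unadjusted p (median 0.06). Bicc1, an RNA-binding protein gene, ran from 4.48 to 5.54 (median 4.99) in high collagen livers and from 4.23 to 4.71 (median 4.47) in low collagen livers (0.50 ± 0.08, SE; adjusted p = 0.0103), whereas the duct keratin gene Krt19 differed by -0.03.

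Several genes that rose were in none of the lists. Anxa1 and Anxa2 encode annexins, calcium-dependent membrane-binding proteins. Anxa1 ran from 5.59 to 7.18 (median 6.32) in high collagen livers and from 4.57 to 6.24 (median 5.03) in low collagen livers (2.18-fold, 1.12 ± 0.19 log2, SE; adjusted p = 0.0103). Anxa2 ran from 4.99 to 7.69 (median 5.72) in high collagen livers and from 4.43 to 5.11 (median 4.75) in low collagen livers (1.11 ± 0.22, SE; adjusted p = 0.0236). For Anxa2, 12 of 13 high collagen livers lay above every low collagen liver, and both annexins stayed called without livers 64, 87 and 235. Emp1, a membrane protein of the peripheral myelin protein family, ran from 3.67 to 6.42 (median 4.37) in high and from 3.26 to 3.83 (median 3.55) in low collagen livers (1.0 ± 0.18, SE; adjusted p = 0.0156; a difference of 0.87 with adjusted p = 0.00244 without those livers). Flna, encoding the actin crosslinker filamin A, ran from 5.78 to 8.12 (median 6.62) in high and from 5.36 to 6.19 (median 5.67) in low collagen livers (1.01 ± 0.20, SE; adjusted p = 0.0236), and missed the threshold without those livers (adjusted p = 0.057).

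Aebp1, Ccdc80 and Ppic encode secreted or secretory-path proteins: a collagen-binding protein, a matrix-associated protein and cyclophilin C, a prolyl isomerase. Aebp1 differed by 0.73 ± 0.15 (SE; adjusted p = 0.0283), with every high collagen liver above the low collagen median. Ppic differed by 0.81 ± 0.15 (SE; adjusted p = 0.0156), and Ccdc80 by 0.65 ± 0.14 (SE; adjusted p = 0.042). Ehd2, a caveolar ATPase gene, and Heg1, a gene of an endothelial transmembrane receptor, were singled out after their values were seen, because they were called whichever liver was left out. Ehd2 differed by 0.55 ± 0.09 (SE; adjusted p = 0.0103; a difference of 0.61 with adjusted p = 0.0053 without livers 64, 87 and 235). Heg1 differed by 0.59 ± 0.11 (SE; adjusted p = 0.0156; a difference of 0.61 with adjusted p = 0.0253 without those livers). Slc25a4, the ADP/ATP carrier of muscle and heart mitochondria, had a larger difference of 1.19 ± 0.27 (SE; adjusted p = 0.047), with its highest value in liver 64, and it was not called without those livers (adjusted p = 0.134).

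Platelet, neutrophil and monocyte genes lay higher in high collagen livers, mostly without passing the test. Ppbp, a platelet chemokine precursor gene, ran from 4.01 to 9.87 (median 6.35) in high collagen livers and from 3.64 to 6.33 (median 4.57) in low collagen livers, the largest higher difference among the called genes (3.7-fold, 1.89 ± 0.41 log2, SE; adjusted p = 0.042; a difference of 1.54 with adjusted p = 0.057 without livers 64, 87 and 235). It was the 1 call among 10 megakaryocyte and platelet genes, 7 of which were higher and none lower at an unadjusted p (median 0.44, or 0.25 without those livers). None of 17 neutrophil genes was called, yet 13 were higher and none lower at an unadjusted p and all 17 differences were positive, with a median of 0.51 with and without those livers. The neutrophil list averaged 3.55 to 5.47 in high collagen livers and 3.42 to 4.81 in low collagen livers. S100a9, a calcium-binding protein gene of neutrophils, differed by 1.09 (adjusted p = 0.0597), and its partner S100a8 by 1.24 (adjusted p = 0.115). Of 19 genes of recruited macrophages and monocytes none was called, and 11 were higher and none lower at an unadjusted p (median 0.44, or 0.34 without those livers). Chil3, a secreted chitinase-like protein gene of monocytes and macrophages, differed by 1.36 (adjusted p = 0.0846). Lymphoid and dendritic cell genes gave no call and none higher at an unadjusted p: 0 of 20 T and NK cell genes (median 0.25, or 0.04 without those livers), 0 of 14 B and plasma cell genes, with 1 lower (median 0.10, or 0.16), and 0 of 13 dendritic cell and MHC class II genes (median 0.14, or 0.06). The part of blood cells in the matrix differences was not tested.

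Kupffer cell genes gave 0 calls of 17 and 2 higher at an unadjusted p (median 0.41, or 0.21 without livers 64, 87 and 235), and their defining markers Clec4f and Vsig4 differed by 0.14 and 0.30, with both highest values in liver 235. Cell cycle genes gave 0 calls of 24 and 10 higher at an unadjusted p; their median difference was 0.62 with all livers and 0.16 without livers 64, 87 and 235. Liver 64 held the highest cell cycle mean of the 26 livers, 8.23, and the highest erythroid mean, 8.56, against at most 4.46 and 3.75 in low collagen livers. The mammary list had a median of 0.43 with 3 genes higher and 2 lower at an unadjusted p, none called; its mean signal had a median of 4.02 in high and 3.95 in low collagen livers, while liver 161 reached 7.83. The adipocyte list had a median of 0.11 with 3 higher and none called. Fabp4, a fatty acid binding protein of adipocytes, capillary endothelium and macrophages, ran from 4.09 to 10.05 (median 6.98) in high collagen livers and from 3.47 to 6.81 (median 5.21) in low collagen livers (2.02 ± 0.46, SE; adjusted p = 0.0542). Adipoq, the defining adipocyte gene, stayed at or under 3.19 in high and 2.90 in low collagen livers, below the median gene level of 3.65. Of 16 interferon response genes none was called and 7 were higher at an unadjusted p (median 0.32); of 22 acute phase genes none was called and 3 were higher (median 0.13).

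The genes that fell most were liver sulfotransferase genes, a major urinary protein pseudogene and an esterase gene. Sult2a enzymes attach sulphate to hydroxysteroids and bile acids, and several of their genes are more active in female than in male mouse liver. Sult2a1 ran from 3.34 to 9.19 (median 6.58) in high collagen livers and from 7.38 to 10.43 (median 9.01) in low collagen livers (5.87-fold lower, -2.55 ± 0.55 log2, SE; adjusted p = 0.042). Sult2a3 ran from 2.45 to 6.78 (median 3.29) in high collagen livers and from 3.42 to 8.0 (median 6.59) in low collagen livers (-2.55 ± 0.50, SE; adjusted p = 0.0236). Both groups spread widely, 9 of 13 high collagen livers lay below every low collagen liver for either gene, and liver 149 had the highest value among the high collagen livers. Sult2a6 ran from 2.32 to 7.93 (median 3.03) in high and from 5.19 to 7.74 (median 6.73) in low collagen livers (-2.40 ± 0.49, SE; adjusted p = 0.0281). Members of this family are near-identical in sequence and share probe signal to an unknown degree, so their calls may not be separate measurements. Mup-ps12, a pseudogene of the major urinary protein cluster with close relatives, fell by a like amount (-2.41 ± 0.49, SE; adjusted p = 0.0281). Without livers 64, 87 and 235 these differences were -2.28, -2.21, -2.08 and -2.24, and none was called (adjusted p = 0.107, 0.104, 0.11 and 0.107).

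**Figure D4:**
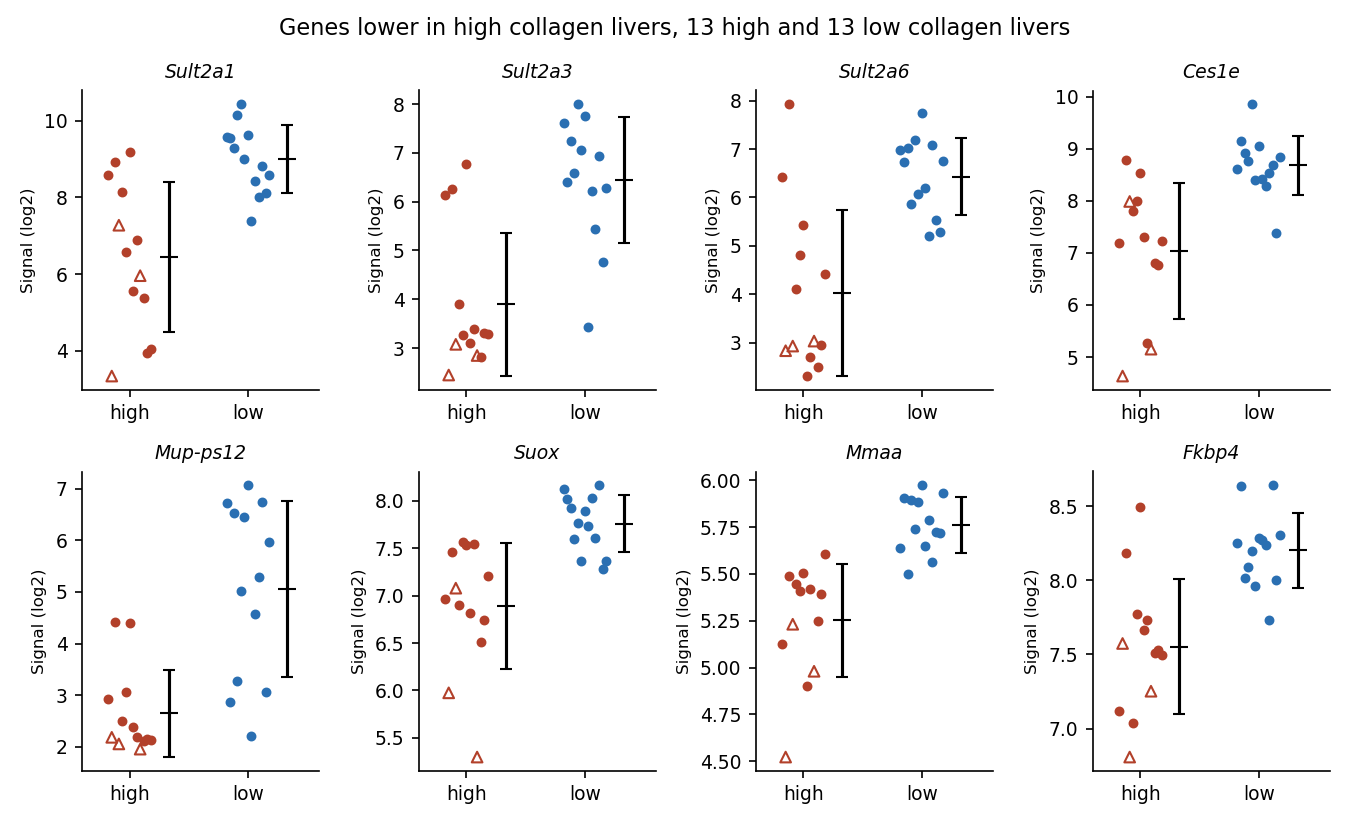
Log2 signals (vertical axes, each with its own range) of 8 genes that fell in the 13 high collagen livers (left in each panel) relative to the 13 low collagen livers (right). Points are livers, open triangles are livers 64, 87 and 235, and bars show mean and SD. Sult2a1 runs from 3.34 to 9.19 (median 6.58) in high and from 7.38 to 10.43 (median 9.01) in low collagen livers, and the groups overlap in every panel.

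Ces1e, a carboxylesterase gene with close relatives, ran from 4.63 to 8.79 (median 7.22) in high collagen livers and from 7.38 to 9.86 (median 8.69) in low collagen livers (-1.65 ± 0.37, SE; adjusted p = 0.047). Suox, encoding sulphite oxidase of the mitochondrial intermembrane space, ran from 5.30 to 7.56 (median 6.97) in high and from 7.28 to 8.17 (median 7.76) in low collagen livers (-0.87 ± 0.19, SE; adjusted p = 0.047). Liver 64 was the lowest of all for Ces1e. Mmaa, needed to load cobalamin onto methylmalonyl-CoA mutase, ran from 4.52 to 5.60 (median 5.39) in high and from 5.50 to 5.97 (median 5.74) in low collagen livers (-0.51 ± 0.10, SE; adjusted p = 0.0215); all 13 high collagen livers lay below the low collagen median. It was the only gene that fell both with all 26 livers and without livers 64, 87 and 235 (-0.41, adjusted p = 0.0351).

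Tmem25 (-0.96), Dclk3 (-0.58), 2300009A05Rik (-0.47), Zadh2 (-0.46), Twnk (-0.43), Dgat1 (-0.38) and Taco1 (-0.34) also fell. Twnk encodes the helicase of mitochondrial DNA replication, Taco1 an activator of cytochrome oxidase translation, and Dgat1 an enzyme of triglyceride synthesis. Fkbp4, a co-chaperone of HSP90, fell by 0.65 (SE 0.14; adjusted p = 0.042) and was the 1 call among 14 heat shock genes, of which 5 were lower at an unadjusted p (median -0.21). Of the 27 genes that fell, 17 had a mean level at or above the median gene; of the 31 that rose, 28 did.

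The hepatocyte lists lay lower in high collagen livers, and almost none of their genes was called. Of 11 female-biased liver genes Sult2a1 fell, and 8 were lower and none higher at an unadjusted p; the median difference was -1.06, or -0.80 without livers 64, 87 and 235. Cyp3a44, a female-biased P450 gene, differed by -1.40 (adjusted p = 0.0846). Of 17 lipogenesis genes 16 were lower at an unadjusted p and none was called; the median was -0.86, or -0.42 with 6 lower without those livers. Fasn, encoding fatty acid synthase, differed by -0.99 (adjusted p = 0.142) and Pklr, the liver pyruvate kinase gene, by -0.87 (adjusted p = 0.0846). Xenobiotic metabolism genes gave 10 lower and 2 higher of 17 at an unadjusted p (median -0.74, or -0.36 without those livers), and pericentral genes 10 lower of 15 (median -0.63, or -0.25). Cyp1a2, a pericentral P450 gene, differed by -1.15 with all livers and by -0.36 without those 3 (adjusted p = 0.196 and 0.4).

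Bile acid genes gave 8 lower of 16 at an unadjusted p (median -0.49, or -0.19 without livers 64, 87 and 235), urea cycle and amino acid genes 10 of 17 (median -0.41, or -0.16) and cholesterol synthesis genes 4 of 16 (median -0.49, or -0.05). Cyp7b1, an oxysterol hydroxylase gene, differed by -0.97 (adjusted p = 0.0828). Fatty acid oxidation genes gave 10 lower of 18 (median -0.39, or -0.26), among them Cpt2, a carnitine palmitoyltransferase gene, at -0.62 (adjusted p = 0.0682). Oxidative phosphorylation genes had small differences of the same sign: all 26 were negative and 18 were lower at an unadjusted p, with a median of -0.21, or -0.17 with 12 lower without those livers. Uqcrc1, a complex III core subunit gene, ran from 8.24 to 8.88 (median 8.59) in high collagen livers and from 8.62 to 9.12 (median 8.89) in low collagen livers (-0.30 ± 0.08, SE; adjusted p = 0.079). General hepatocyte genes gave 4 lower of 18 (median -0.18, or -0.05), with a mean signal from 9.66 to 11.10 in high and from 10.86 to 11.19 in low collagen livers, and the albumin gene Alb differed by -0.04 (adjusted p = 0.693). The part of hepatocyte content in these lower lists was not tested.

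**Figure D5:**
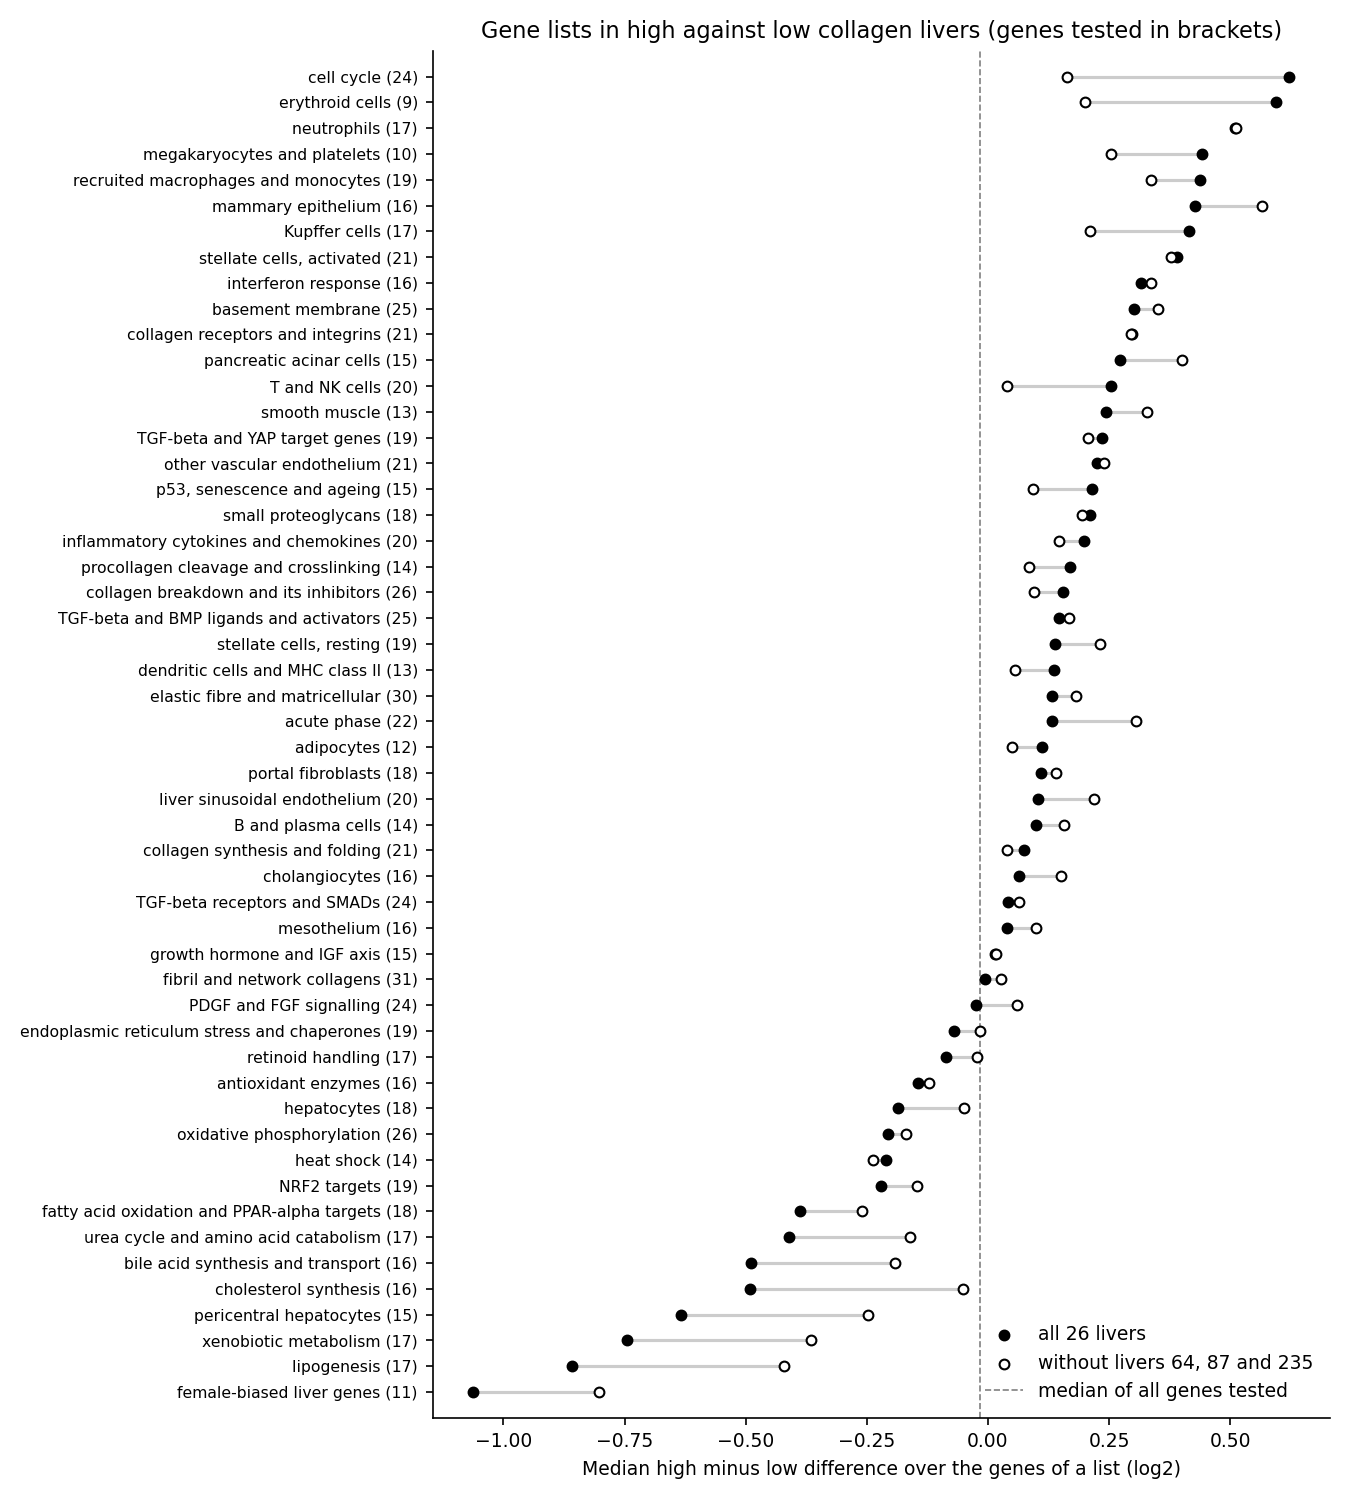
Median difference between high and low collagen livers (log2, horizontal axis) over the tested genes of 52 lists, with the number of genes in brackets. Filled points use all 26 livers, open points leave out livers 64, 87 and 235, and the dashed line marks the median of all genes tested, -0.02. Neutrophil genes sit at 0.51 in both, while lipogenesis genes move to -0.42 without the 3 livers, against -0.86 with them.

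The 24 middle livers were in neither group and were left out of the comparison of the ends. They are no independent set, because the score was standardised and ranked with them included. Within these 24 livers each gene's slope on the score was fitted. No gene passed the test (limma; smallest adjusted p 0.369; 0 also with a robust prior), and 1915 (8.64%) had an unadjusted p under 0.05, 4.31% with a positive and 4.32% with a negative slope. Of the 31 genes that rose in high collagen livers 23 had a positive slope, against 51% of all genes, and of the 27 that fell 18 had a negative slope, against 49% of all genes. At an unadjusted p, 1 of the 31 and 4 of the 27 followed the score in that direction. These slopes include liver 84, which stands apart and was high for many of the 31 genes. Without liver 84 no gene was called either. Of the lists, Kupffer cell genes had 8 of 17 with a positive slope at an unadjusted p, against 4.31% of all genes, and none was called. Other lists often differed from the comparison of the ends. Slopes of either size were positive for 6 of 17 neutrophil, 11 of 21 activated stellate cell and 13 of 25 basement membrane genes. Among lists lower in high collagen livers, they were positive for 11 of 17 lipogenesis and 15 of 16 cholesterol synthesis genes. For fatty acid oxidation and oxidative phosphorylation they were positive for 3 of 18 and 8 of 26. The middle livers span scores from -0.56 to 0.24, a narrow part of the whole range.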

How the data were processed

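Log2 signals of 50 livers were analysed as deposited: per the submitters' processing notes, the authors made them with RMA in Affymetrix Expression Console 1.4.1, a method that brings all arrays to 1 distribution, so differences in total RNA are lost, and that leaves levels of different probe sets incomparable. The extraction protocol speaks of purified cell populations, the tissue label of liver. Array medians lay between 3.27 and 3.34, and precision is limited by how many arrays there are.

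Of 41345 probe sets, 23521 carried 1 gene symbol, 1814 several and 16010 none in the platform annotation. The single-symbol probe set with the highest median stood for a gene, which left 22180 genes. The 3 score genes were not tested.

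High and low collagen livers were compared with limma 3.58.1 in R 4.3.3 (lmFit, eBayes with trend, two-sided, Benjamini-Hochberg over 22177 genes, called at 0.05); checked on simulated data. Technical measures used 100000 permutations. Each mouse is 1 replicate. Gene differences are given with their SE; no filter on low values was used.

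The members, the 52 gene lists and the rule for named genes were chosen with earlier results of these data known. Lists were matched by gene symbol alone: of 961 list genes 881 were measured, and 26 more lie solely on probe sets with several symbols. Genes to name were drawn from all collagens, up to 6 genes of each list with the smallest p, and defining markers. Also eligible were the 15 called genes of the largest difference in each direction at or above the median gene level. Only part of these genes, collagens included, are named, and genes outside the rule are marked in the text. Livers standing apart, those far out on another tissue's genes, probe sets, group size, score, centring, stretches of animal numbers and variance model were varied. The leave-one-out fits and the fit without both kinds of unusual liver were added after seeing the data.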

Additional observations from a re-analysis of the deposited data

How the results depend on the processing

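The 58 calls became 100 with the mean of a gene's probe sets, 93 with only genes at or above the median level, 153 with 17 livers a side, 116 with array weights and 5509 for the slope on the score over all 50 livers. They became 36 with a difference of at least 0.5 log2, 19 without livers that stand apart, 18 when livers were ranked again without them, and 16 without these and livers far out on another tissue's genes, an alternative chosen after seeing the data. The other settings gave 55 (10 livers a side), 71 (arrays centred), 75 (score from ranks), 60 (without livers far out on another tissue's genes), 60 (animal number as covariate), 74 (stretch as block) and 49 (robust prior). No called gene changed sign in any alternative. The alternatives reuse the livers that chose these genes, so the kept signs are a description and no independent test. Leaving out 1 liver gave 12 to 232 calls, and 17 of 26 livers moved the count by over 1.5 times. Of the high collagen livers these were 10 (33 calls), 149 (102), 235 (30), 257 (33), 282 (30), 79 (232) and 87 (31). Of the low collagen livers they were 114 (12), 187 (32), 200 (38), 232 (33), 24 (37), 290 (26), 60 (31), 7 (28), 89 (34) and 91 (34). The cause was not tested. The middle livers gave 0 calls under each alternative run.

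No paired analysis was possible because the animal numbers mark single mice and no liver of one group shares a number with the other.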

Other observations

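Genes tied to senescence and ageing were not called. Of 15, 3 were higher and 1 lower in high collagen livers at an unadjusted p, with a median difference of 0.21, or 0.09 without livers 64, 87 and 235. Btg2, an antiproliferative p53 target gene, ran from 4.83 to 8.79 (median 6.71) in high collagen livers and from 3.61 to 6.62 (median 5.22) in low collagen livers, a difference of 1.39 (limma adjusted p = 0.0945). Igfbp7, a secreted IGF-binding protein gene of vessels, differed by 0.40 (limma adjusted p = 0.087). Cdkn1a, which encodes the cell cycle inhibitor p21, differed by 0.82 (limma adjusted p = 0.3), and Cdkn2a, the p16 locus, by -0.15 (limma adjusted p = 0.256).

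Antioxidant enzyme genes gave 2 higher and 5 lower of 16 at an unadjusted p, none called (median -0.14). Sod1, encoding cytosolic superoxide dismutase, ran from 10.41 to 11.48 (median 11.15) in high collagen livers and from 11.34 to 11.56 (median 11.45) in low collagen livers, a difference of -0.36 (limma adjusted p = 0.0707). Cat, encoding catalase, differed by -0.39 (limma adjusted p = 0.128), and Gpx3, a secreted glutathione peroxidase gene, by 0.68 (limma adjusted p = 0.144). NRF2 targets gave 6 lower of 19 (median -0.22), and retinoid handling genes 3 lower of 17 (median -0.09), among them the retinaldehyde dehydrogenase gene Aldh1a1 at -0.64 (limma adjusted p = 0.127).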
